A study of Homo sapiens with 6 samples.

Results

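The genomic neighbourhoods of 6 genes that decide between cell survival and cell death were examined for binding of the glucocorticoid receptor (GR): BCL2, BCL2L1, MCL1, BCL2L11, BIRC3 and BCL6. A peak belonged to a gene when its centre lay in a fixed hg19 window that covers the gene and about 50 kb on each side, 120 to 300 kb in all. Overlapping peaks of the dexamethasone lists were merged into sites, and the windows held 29 of the 43713 sites of the whole genome. GR was mapped by ChIP-seq in stable cell lines derived from U-2OS, a human osteosarcoma line, and each line was represented once. The GR cell is the line in which GR was studied alone, and the MR/GR cell is the line that carries the mineralocorticoid receptor (MR) as well. Both were treated for 2 hr with DMSO as vehicle or with 100 nM dexamethasone, a synthetic glucocorticoid, and GR was precipitated with an anti-GR antibody. For each line and treatment 3 peak lists were deposited (12 in all). Whether they stem from separate cultures is not said in the labels, so the p-values cover the variation among lists alone, and that could be technical. Peak positions carry no expression values, so neither the identity of the line nor the response of a gene could be checked with them.

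The BCL2 family controls the permeability of the outer mitochondrial membrane. BCL2, BCL2L1 (which encodes BCL-XL) and MCL1 encode members that hold the pore-forming proteins in check, and BCL2L11 encodes BIM, a BH3-only protein that binds those guardians and promotes death. BIRC3 encodes cIAP2, a ubiquitin ligase of the inhibitor of apoptosis family that acts in TNF receptor signalling, and BCL6 encodes a zinc-finger repressor of transcription known from germinal centre B cells. Glucocorticoids are known to kill lymphoid cells, with BIM as one mediator, and to protect many epithelial cells from death. GR acts at enhancers that are often far from the gene they serve, so a site in a window is near the gene but is not shown to act on it.

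The treated lists differed in length: 37650, 30912 and 26191 peaks in the GR cell and 3713, 10459 and 6660 in the MR/GR cell. The vehicle lists held 11 to 238 peaks. Peak width was fixed within each list, apart from 1 peak, at 354 to 424 bp in the treated GR cell and 280 to 304 bp in the treated MR/GR cell. Read depth is unknown and the lists give no heights, so a site that is missing from a list may be unbound or may lie under the calling threshold.

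The sequence shown is that of the BIRC3 promoter, because BIRC3 had the most sites and a pair of them, called in all 6 treated lists, lay within 5 kb of the start of the gene as the window places it, to about 10 kb. It covers the 250 bases before the RefSeq start in GRCh38.p14, chr11:102317234-102317483, plus strand. Capitals mark a match to an NF-kB site (GGG, any 2 bases, then TTTCC), read here on the other strand. NF-kB is a known regulator of BIRC3.
BIRC3: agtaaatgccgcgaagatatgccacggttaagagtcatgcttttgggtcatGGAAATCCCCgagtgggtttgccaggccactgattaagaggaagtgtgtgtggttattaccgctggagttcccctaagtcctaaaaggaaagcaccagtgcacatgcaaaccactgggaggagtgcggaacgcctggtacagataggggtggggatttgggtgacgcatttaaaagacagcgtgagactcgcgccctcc

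RefSeq promoters of 300 bases (250 before and 50 after the start) were at hand for 5 of the 6 genes, 7 promoters in all. MCL1 had none, so the motif counts do not cover it. On either strand, the NF-kB letters were found in 1 of these 7, that of BIRC3, and in 1.91% of all 35116 promoters. The palindromic GR site (GNACA, any 3 bases, then TGTNC) was in 0 of the 7 and in 0.390% of all promoters. The shorter GR hexamer AGAACA was in 1 of the 7, a BCL6 promoter in which it begins 31 bases after the start, and in 14.8% of all. These are matches of letters in the stated windows. Whether a peak covers any of these promoters was not analysed here, since peaks and promoters are in different builds, and the sequences under the peaks are not shown because an hg19 genome was not used here.

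The first comparison was between vehicle and dexamethasone within each line. No vehicle list had a peak in any of the 6 windows. That is 0 of 588 vehicle peaks in the GR cell, which allows a share of up to 0.510%, and 0 of 183 in the MR/GR cell, which allows up to 1.64% (3 counts, counting error only). The closest vehicle peaks lay 30.3 kb below the MCL1 window, in vehicle lists 1 and 3 of the GR cell, at a place that was also called in all 3 treated GR-cell lists, and not in the treated MR/GR cell (chr1:150459555-150459850 in list 1). With dexamethasone, the windows together held 27, 24 and 23 peaks in the 3 lists of the GR cell and 6, 13 and 10 in those of the MR/GR cell. These were 0.0717% to 0.0878% of the treated GR-cell peaks and 0.124% to 0.162% of the treated MR/GR-cell peaks. Both ranges lie under the vehicle limits, so the short vehicle lists do not show a lower share of peaks in these windows.

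In the GR cell all 6 windows had a peak in every treated list, so treated and vehicle lists did not overlap in any of them. Among tiles of 150 kb with a treated peak, 76.5% met this. In the MR/GR cell the lists did not overlap for BCL2L1, BIRC3, BCL2L11 and MCL1, 4 of 6 windows, against 17.2% of the tiles, which are not chosen for genes and are narrower than 3 of the windows. BCL6 had a peak in MR/GR-cell list 3 only and BCL2 in none. For the 6 windows in the GR cell and these 4 in the MR/GR cell, p was 0.1 in a two-sided exact permutation test, and no smaller p can come from 3 lists on each side. In the MR/GR cell the exact permutation p was 1 for BCL6 and for BCL2.

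**Figure D1:**
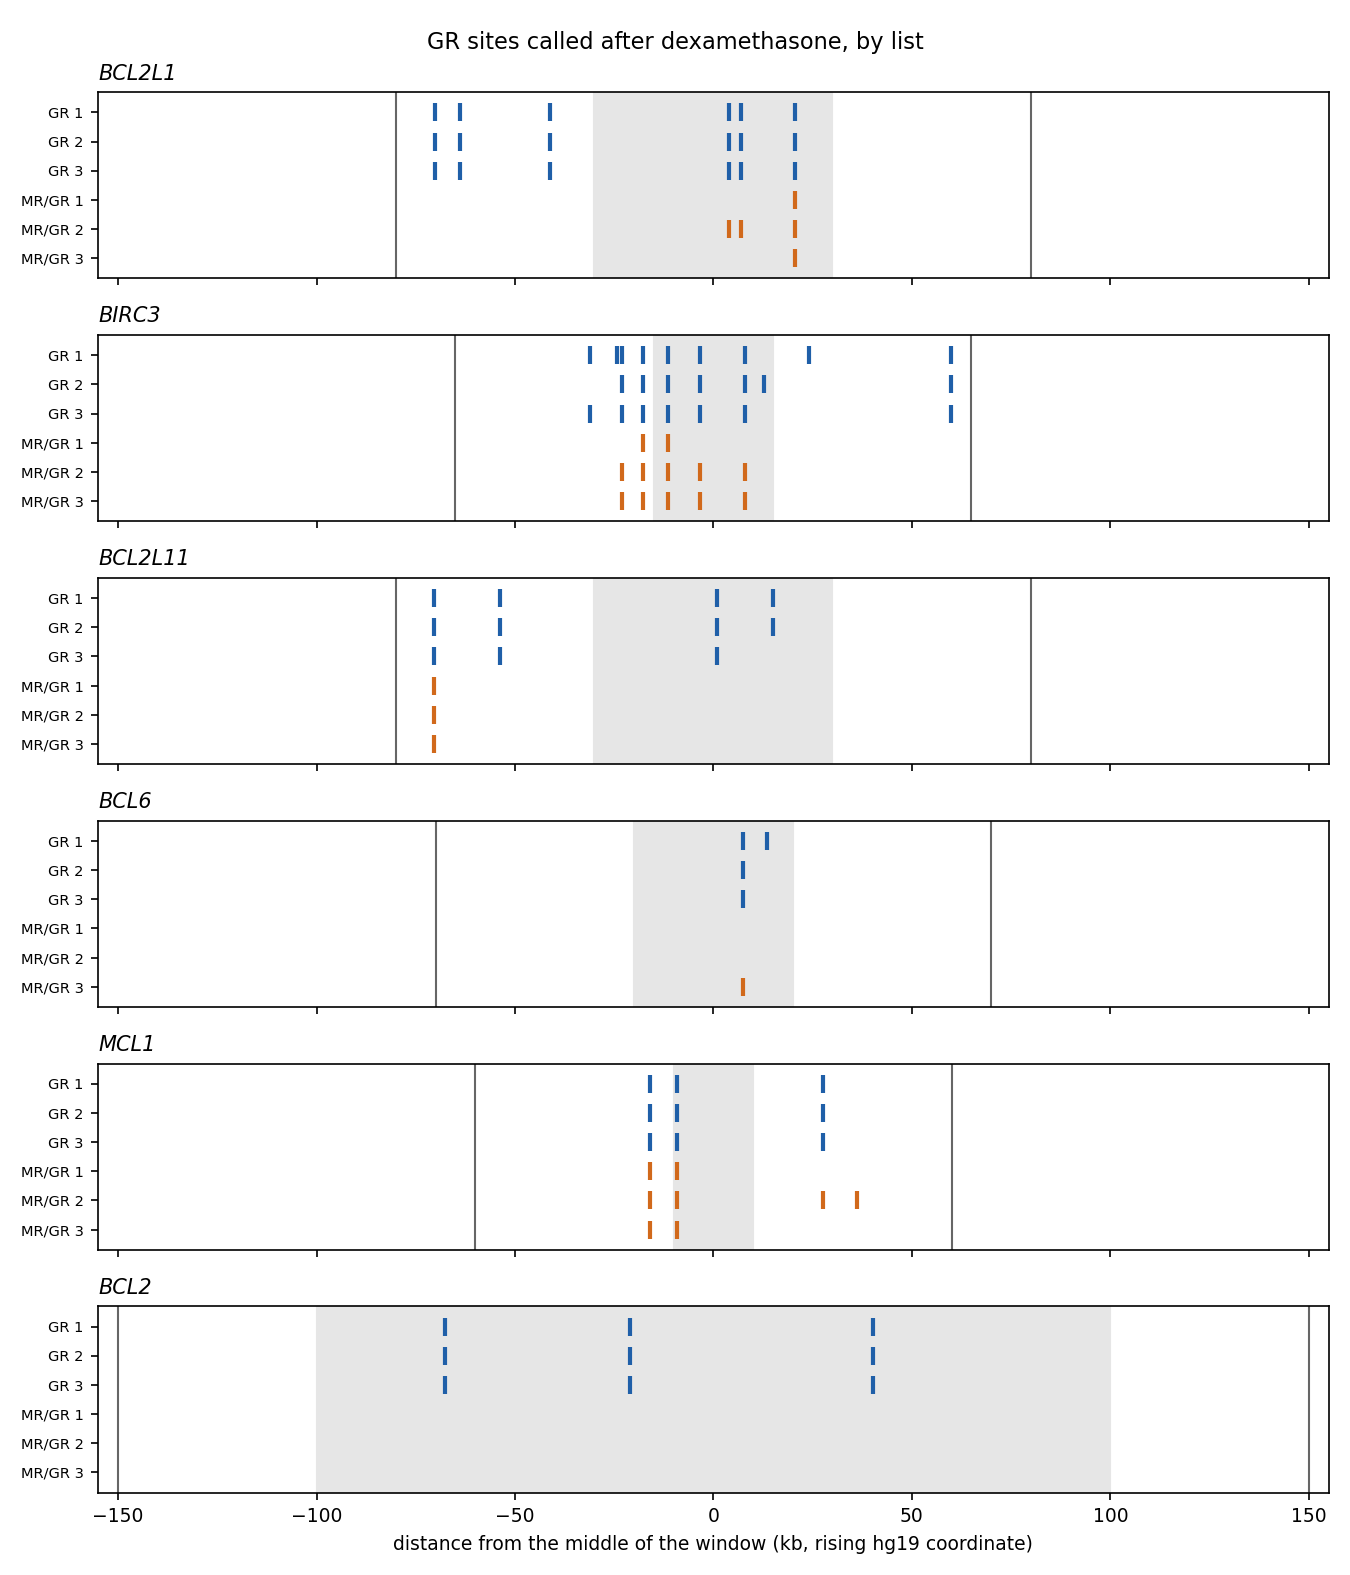
Sites called after dexamethasone in the 6 gene windows, drawn by distance in kb from the middle of each window. Each row is a list (blue, GR cell; orange, MR/GR cell), vertical lines are the window ends and grey is the window less 50 kb on each side. The MR/GR-cell marks stand under GR-cell marks except for the last MCL1 site, and the BCL2 rows of the MR/GR cell are empty.

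The 29 sites were unevenly spread over the genes, with 10 at BIRC3, 6 at BCL2L1, 4 each at BCL2L11 and MCL1, 3 at BCL2 and 2 at BCL6. At least 2 of 3 GR-cell lists held 24 of them (82.8%), against 69.5% of all sites. At least 2 of 3 MR/GR-cell lists held 9 (31.0%), against 13.6% of all sites. All 9 were also sites of the GR cell, against 90.9% of all sites held by the MR/GR cell. Of the 29 sites, 6 (20.7%) were in all 6 treated lists, against 6.90% of all sites, and 9 (31.0%) were in all 3 GR-cell lists but absent from the MR/GR cell, against 34.4%. Among sites in all 3 GR-cell lists, 9 of 22 in the windows and 15056 of 22935 in the genome had no MR/GR-cell peak. Such absence was thus the usual outcome over the genome. The 5 sites held by neither line, in 1 list each, were 3 at BIRC3, 1 at BCL6 and 1 at MCL1. The last of these was the only 1 of the 29 without a GR-cell peak, against 2260 of all 43713 sites.

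BIRC3, the inhibitor of apoptosis gene, was the most densely bound of the 6. Its 130 kb window had 9, 7 and 7 peaks in the GR cell and 2, 5 and 5 in the MR/GR cell. The GR-cell lists were all above those of the MR/GR cell. The difference in log2(peaks + 1), MR/GR cell minus GR cell, was -0.86 (SE 0.35, n = 3 lists each, exact permutation p = 0.1, two-sided). Held GR-cell sites numbered 7. Over all 20622 tiles of 150 kb, with or without a treated peak, the mean was 1.47 and 1.39% had 7 or more.

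Of these 7 BIRC3 sites, 5 were also held by the MR/GR cell, and they formed a run of 30.9 kb along the lower flank and the gene. The outer member on the low side, chr11:102171770-102172195, was in 3 GR-cell and 2 MR/GR-cell lists. The next, chr11:102176969-102177392 and chr11:102183389-102183825, were in all 6 lists and stood 6.43 kb apart. The last in the run, chr11:102191371-102191794 and chr11:102202640-102203094, were again missing only from MR/GR-cell list 1, the shortest. BIRC3 is on the plus strand, so the pair in all 6 lists flanked its window-derived start, 2.8 kb before and 3.6 kb after it. At an accuracy of about 10 kb, the side of the true start on which each lies is not settled. The GR-cell sites that the MR/GR cell did not hold were the outermost of the 7, chr11:102163764-102164187 (2 GR-cell lists) and chr11:102254566-102254989 (3 GR-cell lists). The latter lies on the side of BIRC2, a neighbouring gene of the same family. Without MR/GR-cell list 2 or list 3, with a peak required in both remaining lists, the MR/GR cell held 2 of the BIRC3 sites instead of 5.

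Among the survival members of the BCL2 family, MCL1 had the smallest difference between the lines in unscaled peaks, also among all 6 genes. Scaled to list length it had the largest of the 6, in the other direction (1.34 in log2(peaks per 10000 + 1)). MCL1 encodes a short-lived guardian that cells must keep making. Its window had 3, 3 and 3 peaks in the GR cell and 2, 4 and 2 in the MR/GR cell, so the lists overlapped. On the log2(peaks + 1) scale the lines differed by -0.17 (SE 0.25; p = 0.4 by the two-sided exact permutation test). The sites chr1:150533729-150534152 and chr1:150540517-150540940, 6.79 kb apart, were called in all 6 lists. They lie at and just below the lower end of the gene as the window places it, on the side of the neighbouring gene ADAMTSL4. On the other side, toward ENSA, chr1:150577242-150577680 was in 3 GR-cell lists and MR/GR-cell list 2, and chr1:150586054-150586337 was in MR/GR-cell list 2 only. List 2 is the longest of the MR/GR-cell lists.

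BCL2L1 had 6 peaks in each GR-cell list and 1, 3 and 1 in the MR/GR-cell lists. The lists of the lines did not overlap, and the lines differed by -1.47 (SE 0.33; p = 0.1 by the two-sided exact permutation test). The same 6 places were called in all 3 GR-cell lists. They formed 2 groups of 3, the first in the lower flank, and were 45.09 kb apart at the gap. BCL2L1 is on the minus strand, so the lower flank is the side beyond its end, where COX4I2 lies. None of the 3 flank sites, chr20:30209646-30210083, chr20:30215945-30216411 and chr20:30238696-30239146, was called in the MR/GR cell. Within the gene, chr20:30283787-30284240 and chr20:30286757-30287262 were each found in MR/GR-cell list 2 only. The site closest to the start of the gene, chr20:30300300-30300723, about 9.5 kb inside it as the window places it, was called in all 6 lists.

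BCL2 was the member with the widest window and no peak in the MR/GR cell. It had 3 peaks in every GR-cell list and 0 in every MR/GR-cell list, a difference of -2.0 in log2(peaks + 1) (exact permutation p = 0.1, two-sided). Its size depends on the pseudocount, since 1 side was 0. The same 3 places were called in each GR-cell list: chr18:60822085-60822538, chr18:60868810-60869270 and chr18:60929927-60930350. All lay inside the gene as the window places it, 46.73 and 61.10 kb apart. Scaled to list length, the GR cell had 0.971 ± 0.174 peaks per 10000 (SD, n = 3), and 0 of 20832 MR/GR-cell peaks allows up to 1.44 per 10000. That limit is above the GR-cell value, so a difference in share was not detectable at this list length.

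BCL2L11, which encodes the death-promoting BIM, had 4, 4 and 3 peaks in the GR cell and 1, 1 and 1 in the MR/GR cell. The lists did not overlap, and the lines differed by -1.21 (SE 0.11; p = 0.1 by the two-sided exact permutation test). The only place called in the MR/GR cell was chr2:111829465-111829918, which was in all 6 lists. BCL2L11 is on the plus strand, and this site lay 40.3 kb before the window-derived start of the gene, in the flank toward ACOXL. The site chr2:111845907-111846413, also before the gene, and chr2:111900804-111901292, inside it, were called in 3 GR-cell lists but not in the MR/GR cell. A second site inside the gene, chr2:111914901-111915308, was in GR-cell lists 1 and 2.

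BCL6 had the fewest sites. Its window had 2, 1 and 1 peaks in the GR cell and 0, 0 and 1 in the MR/GR cell, and the lists overlapped. On the log2(peaks + 1) scale the lines differed by -0.86 (SE 0.39; p = 0.3 by the two-sided exact permutation test). The site chr3:187457115-187457759 was in 3 GR-cell lists and in MR/GR-cell list 3, and chr3:187463180-187463533 was in GR-cell list 1 only. Both lie inside the gene as the window places it, in the part nearer its start, since BCL6 is on the minus strand. With 0.714 GR-cell sites per 100 kb BCL6 had the lowest density of the 6, below BCL2 with 1.00, MCL1 and BCL2L11 with 2.50 each, BCL2L1 with 3.75 and BIRC3 with 5.38.

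The MR/GR cell thus had fewer peaks than the GR cell in 6 of 6 windows by the mean, and in 4 of 6 without overlap of the lists. With windows narrowed by 50 kb on each side, the lists of BCL2L1 and BIRC3 overlapped too. Among 150 kb tiles with a treated peak, 58.1% had every GR-cell list above every MR/GR-cell list. Because the lists of the MR/GR cell are shorter throughout the genome, peaks were also scaled to 10000 peaks of their own list. On that scale MCL1 had 0.797, 0.970 and 1.15 in the GR cell and 5.39, 3.82 and 3.00 in the MR/GR cell, without overlap. BIRC3 had 2.39, 2.26 and 2.67 against 5.39, 4.78 and 7.51, also without overlap. On the same scale every MR/GR-cell list was above every GR-cell list in 12.1% of the tiles with a treated peak.

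In log2(peaks per 10000 + 1), the MR/GR cell minus the GR cell was 1.34 for MCL1 (SE 0.21) and 0.98 for BIRC3 (SE 0.17), each with exact permutation p = 0.1 (two-sided). For BCL2 the value was -0.98 (SE 0.07, exact permutation p = 0.1, two-sided), set against 3 lists at 0 whose limit of 1.44 per 10000 is above the GR-cell share, so no lower share is shown. Among the tiles, 38.7% had every GR-cell list above every MR/GR-cell list on the scaled values. For BCL2L1, BCL2L11 and BCL6 the scaled lists overlapped, with differences of 0.17 (SE 0.22), 0.28 (SE 0.27) and -0.05. The two-sided exact permutation p was 0.6 for BCL2L1 and 0.5 for BCL2L11. The direction therefore turned between peaks and scaled peaks, without overlap of the lists, for BIRC3 and MCL1 only. For BCL2L1 and BCL2L11 the sign changed, but the scaled lists do not show a direction. BCL6 gave no direction on the scaled values: its GR-cell mean was 0.412 per 10000 and its MR/GR-cell mean 0.501, opposite in sign to the log2 difference of -0.05 (SE 0.45).

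**Figure D2:**
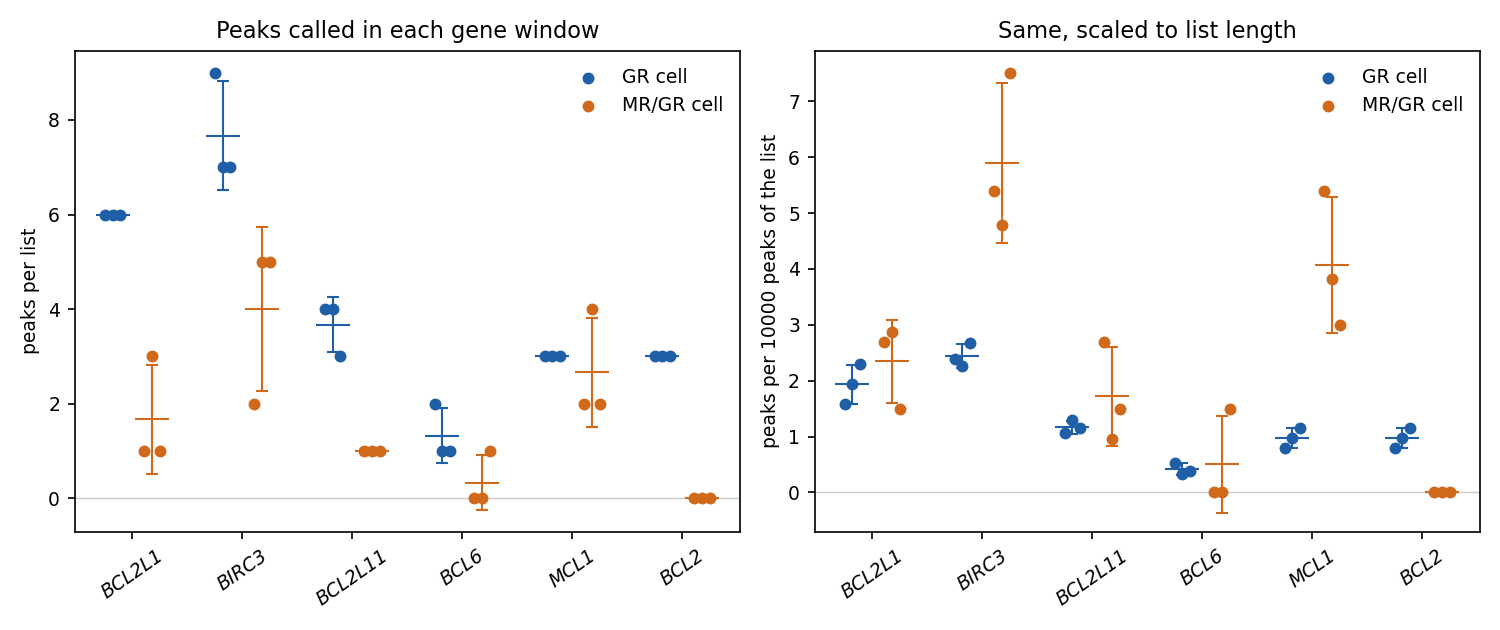
Peaks per treated list in each gene window (left) and the same per 10000 peaks of the list (right); points are lists, horizontal bars the mean and error bars the SD over 3 lists. The GR cell (blue) is higher at BIRC3 on the left, with 7 to 9 peaks against 2 to 5, and the MR/GR cell (orange) is higher there on the right.

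Of the 24 GR-cell sites in the windows, the MR/GR cell held 9, or 37.5% (Wilson 95% interval 21.2 to 57.3, counting error over sites only), against 17.9% of all 30365 GR-cell sites. Each MR/GR-cell list gave the same order: list 1 had a peak at 25.0% of the window sites and 11.4% of all, list 2 at 12 of the 24 and 25.4%, and list 3 at 41.7% and 19.6%. The 3 lists were scored on the same sites and also define the held ones, so this order is not separate support. Of the 24 window sites, 22 were in all 3 GR-cell lists, against 22935 of the 30365 in the genome. BIRC3 supplied 5 of the 9 held sites. Without BIRC3 the share was 4 of 17, or 23.5%. By gene, the MR/GR cell held 5 of 7 GR-cell sites at BIRC3, 2 of 3 at MCL1, 1 of 4 at BCL2L11, 1 of 6 at BCL2L1, 0 of 1 at BCL6 and 0 of 3 at BCL2. The 6 genes were picked with results of these data known, so the gap to the genome is a description.

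**Figure D3:**
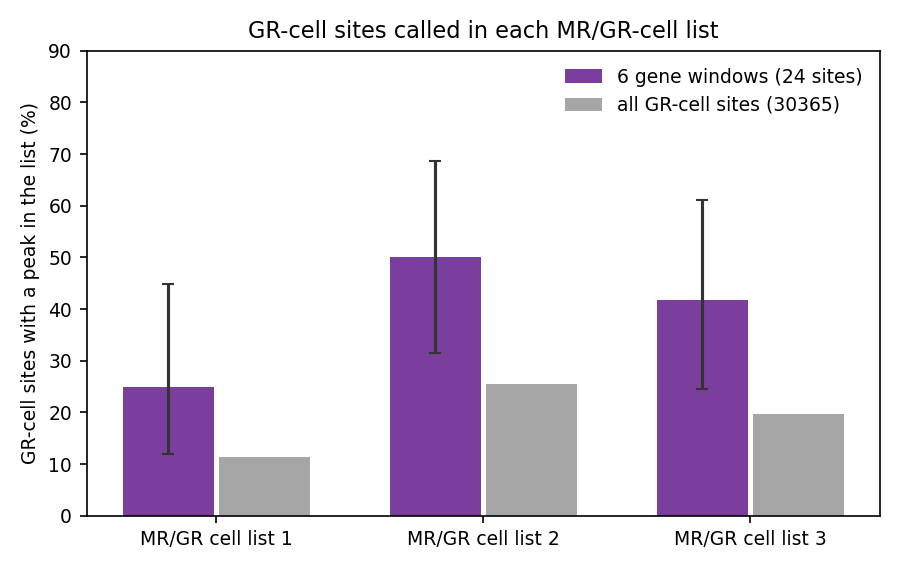
Share of GR-cell sites with a peak in each MR/GR-cell list, in percent, for the 24 sites of the gene windows (purple, Wilson 95% intervals for counting error) and for all 30365 GR-cell sites (grey). Each purple bar stands above its grey bar, as at list 3 with 41.7% against 19.6%.

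Where both lines had a peak, their centres lay close together, which merging by overlap in part requires. At the 13 such sites the mean centre of the MR/GR-cell peaks lay a median of 17 bp from that of the GR-cell peaks, and at the 6 sites in all 6 lists at most 17 bp. The BCL2L1 site in all 6 lists had the smallest offset, 2 bp. BCL6 stood apart with 104 bp. Its GR-cell peaks themselves spread over 285 bp between lists, the most among the 24 GR-cell sites, followed by 129 bp at the BCL2L11 site chr2:111900804-111901292. When peaks were joined only with centres at most 100 bp apart, the GR-cell list 1 peak of BCL6 was a site of its own. Among GR-cell lists, centres ranged over a median of 32 bp (4 to 59) at the 9 sites held by both lines and 61 bp (11 to 285) at the 15 held by the GR cell alone. Offsets and ranges over all sites of the genome are not given here, so whether these are usual is not known.

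**Figure D4:**
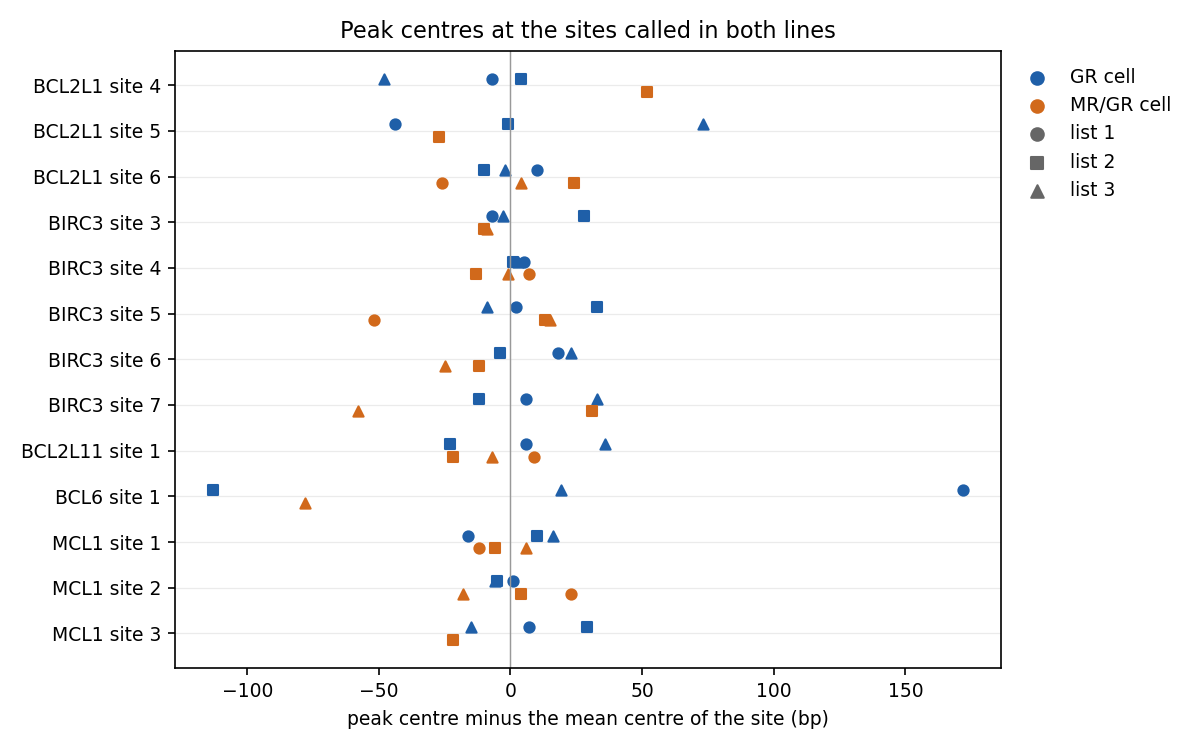
Peak centres in bp from the mean centre of the site, for the 13 sites with peaks in both lines; sites are numbered by rising coordinate within each window, colours are lines and shapes are lists. BCL6 site 1 has the widest spread, and the other sites lie within 75 bp of their mean.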

How the data were processed

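The authors deposited 12 peak lists, 3 for each of 4 GR immunoprecipitations, with chromosome, start and end in hg19 and no score. The other 2 samples are input DNA, not analysed here. The submitters' processing notes name HOMER 4.8.3, Picard 1.115, SAMtools 1.3.1, Trim Galore 0.4 and Bowtie. How each was set and what threshold was used for calling is not given in the sources used here. Each list has its own peak width, which affects which peaks overlap.

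Peaks of the 6 dexamethasone lists that overlapped by at least 1 bp were merged into sites, and a site counted as held by a line if 2 or 3 of its lists had a peak in it. Peaks per window were compared as log2(peaks + 1) by two-sided exact permutation tests (20 arrangements; 6 between lines, 12 of treatment), unadjusted since none can pass 0.05. Coordinates are hg19, counted from 1, unless a promoter is named. A gene's body was taken as its window less 50 kb on each side. Strands, neighbours and promoters come from RefSeq tables in GRCh38.p14, and other genes of the pathway were not analysed here. Every site held by both lines and up to 3 per gene in all GR-cell lists alone were given by coordinates; further sites were added after their values were seen. Members, windows and motifs were chosen with earlier results of these data known. Python 3.11.15, numpy 2.4.6, SciPy 1.17.1 and matplotlib 3.10.9 were used. The number of sites was checked against bedtools 2.31.1, and site calls for the treated lines were tested on 3940 simulated sites, of which 100% were recovered. The simulated sites lay far apart and their peak centres close together, so recovery checked the code only. It does not cover sites that stand close to each other or whose centres spread, as at BCL6.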

Additional observations from a re-analysis of the deposited data

How the results depend on the processing

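Of 405 alternatives, 370 kept their direction or stayed within the set range. Some of these could not move: no vehicle list had a peak in any window, so leaving 1 out changed nothing. The scaled BCL6 difference of -0.05 counts among the 370 though it gives no direction. So does the share held of 23.5% without BIRC3, against 37.5% with all genes. Tests of 3 lists against 3 cannot pass 0.05, so the count speaks to direction and size only. Per 10000 peaks of the list, the difference between the lines turned to 0.98 for BIRC3 and 1.34 for MCL1, since the lists differ in length. For BCL2L1 (0.17) and BCL2L11 (0.28) the sign changed too, but with overlapping lists. With windows narrowed by 50 kb on each side the sites of the GR cell numbered 13, those of the MR/GR cell 5 and those of both lines 5, and the MCL1 difference was 0.00. With a peak in at least 1 list the MR/GR cell had 14 sites. Leaving out 1 list gave 22 to 23 sites of the GR cell, 6 to 9 of the MR/GR cell and 6 to 9 of both, and a share held of 25.0% (without MR/GR-cell list 2 or 3) to 40.9%. Leaving out each gene in turn, chosen after seeing the data, gave 23.5% (without BIRC3) to 44.4% (without BCL2L1). Without MR/GR-cell list 3, BCL6 had no peak in the MR/GR cell. The labels give no list numbers. With the number in the deposited lists as a replicate block, the differences were the same (-2.0 for BCL2 to -0.17 for MCL1), with an exact sign-flip p of at least 0.25. Same-numbered lists had correlations of 0.103, -0.025 and -0.007 over sites, and lists with unlike numbers had -0.126 to 0.111. The numbers were therefore not taken to pair the lines. These correlations do not measure how far the calls of the lines agree. Of all sites held by the MR/GR cell, 90.9% were also held by the GR cell. Unknown read depth limits every absence reported here.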
